A study of Mus musculus with 6 samples.

Results

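The kainate-type glutamate receptor was examined through the 7 genes that encode its 5 subunits, *Grik1* to *Grik5*, and its 2 auxiliary subunits, *Neto1* and *Neto2*. They were chosen by gene symbol and function, with no cutoff on a measured value but with earlier results of these data known. All 7 were among the 15168 genes listed for the bulk RNA-seq of the E16.5 mouse LGE, the primordium of the striatum. Of these 6 libraries, 3 came from *Dlx5/6-CIE; Rosa-Sp9-OE/+* mice (Sp9-OE) and 3 from their *Dlx5/6-CIE* controls. Both groups carry the *Dlx5/6-CIE* transgene, which places Cre, with IRES-EGFP, in progenitors of the LGE and in the neurons they produce. The Sp9-OE group adds 1 copy of a *Rosa26* allele from which Cre switches on *Sp9*, the zinc finger transcription factor under study. *Sp9* transcripts from its own locus and from the allele are not separated here. The study's methods describe tissue from several mice a group and littermate controls, but no label ties a library to an animal. The p-values therefore reflect the spread between these libraries.

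Kainate receptors are tetrameric cation channels opened by glutamate. *Grik1*, *Grik2* and *Grik3* encode GluK1, GluK2 and GluK3, which can form channels alone, whereas *Grik4* and *Grik5* encode GluK4 and GluK5, which bind glutamate tightly but need one of the first group to reach the surface as a working channel. NETO1 and NETO2 are single-pass membrane proteins with CUB domains that bind the receptor, slow its gating and affect its placement at synapses. In the striatum kainate receptors are found on medium spiny neurons (MSNs) and on terminals, where they tune transmitter release, and in developing neurons they take part in axon growth and early network activity.

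The 5 subunits are alike in the loop that lines the pore, and the stretches printed here hold the site at which 2 of them are edited. Each line gives 33 bases of coding sequence, read 5′ to 3′ from the longest coding transcripts of GENCODE M21 (GRCm38), with the codon of the Q/R site in capitals. In GluK1 and GluK2 this glutamine codon is edited to arginine by the adenosine deaminase ADAR2, product of *Adarb1*, which lowers calcium entry. Editing itself cannot be read from gene counts.
Grik1: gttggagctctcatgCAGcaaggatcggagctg
Grik2: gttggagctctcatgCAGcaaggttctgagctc
Grik3: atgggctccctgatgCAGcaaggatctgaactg
Grik4: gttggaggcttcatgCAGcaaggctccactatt
Grik5: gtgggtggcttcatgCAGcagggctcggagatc
The capitals lie at codon 636 of *Grik1* (chr16:87940542-87940544, minus strand), 621 of *Grik2* (chr10:49244329-49244331, minus), 623 of *Grik3* (chr4:125691207-125691209, plus), 606 of *Grik4* (chr9:42547623-42547625, minus) and 605 of *Grik5* (chr7:25022497-25022499, minus). Each of these codons sits within 1 exon, and the printed stretches of *Grik1*, *Grik2* and *Grik3* run across an exon junction. All 5 genes have CAG at this place. *Grik1* and *Grik2* were the closest pair, with 30 of 33 bases the same, and *Grik3* and *Grik4* the most distant, with 19 of 33.

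Values are CPM as deposited, which set the reads of a gene against the effective size of its library. Recovered reads in listed genes were 21767904 to 25126847 in Sp9-OE libraries and 19410365 to 22174028 in controls. *Sp9* stood at 178, 268 and 305 CPM in Sp9-OE libraries, against 130, 147 and 170 CPM in controls, with no overlap. *Gt(ROSA)26Sor*, the transcript of the targeted locus, stood at 23.0 to 23.2 CPM in Sp9-OE libraries and 11.8 to 14.2 CPM in controls. Higher values without overlap were seen for 5.46% of all genes. Neither *Sp9* nor *Gt(ROSA)26Sor* passed an adjusted p of 0.05 in the limma fit used below, with 0.788 and 0.066. MSN markers were present in every library, with a summed level of 2260 to 3000 CPM in Sp9-OE libraries and 1910 to 2410 CPM in controls for 7 genes of both MSN types. The libraries differed in sex: *Xist* was at 1.37 to 2.33 CPM in Sp9-OE libraries and at 2230, 2190 and 2.35 CPM in controls 1, 2 and 3, with the Y-linked *Kdm5d* at 75.8 to 80.6 CPM in Sp9-OE libraries and at 0.1, 0.05 and 73.7 CPM in these controls. Controls 1 and 2 thus have no counterpart in the Sp9-OE group. Fits with *Xist* as a covariate, given below, therefore set the Sp9-OE group in effect against control 3. Control 1 also stood apart in cortical markers, with 82.7 CPM summed over 6 pyramidal neuron genes, against 24.8 to 37.7 CPM in Sp9-OE libraries and 37.0 and 9.99 CPM in controls 2 and 3.

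The first comparison asked whether *Sp9* overexpression altered the level of any of the 7 genes. None passed an adjusted p of 0.05 (limma, two-sided, Benjamini-Hochberg over 15102 genes). *Grik3* differed most, with a mean 1.37 times that of controls and all 3 Sp9-OE libraries above all 3 controls. *Neto1* had a smaller positive difference, 0.27 on the log2 scale, with overlap between the groups. *Grik1*, *Grik2*, *Grik4*, *Grik5* and *Neto2* were within 0.13 of 0 on that scale, also with overlap. All 7 passed the filter on low values, at least 0.5 CPM in at least 3 libraries.

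The adjusted threshold was passed by 0.0265% of all genes tested, 4 genes, and by 15 genes without control 1 and 11 without control 3. An unadjusted limma p under 0.05 was reached by 2.68% of all genes with a positive difference and by 2.84% with a negative one. Among the 7 genes only *Grik3* reached it. Without control 1, 4 of the 7 did (*Grik2*, *Grik3*, *Neto1* and *Neto2*), beside 13.4% of all genes in either direction, and with *Xist* as a covariate 0 of the 7 did, beside 3.62%. No overlap between the groups was seen for 5.46% of all genes with higher values in Sp9-OE libraries and for 5.73% with lower values. Of the 7, 1 gene was in the higher class, *Grik3*, and 0 in the lower. The log2 difference was above 0 for 6 of the 7 and below 0 for 1, with a median of 0.09, beside a median of 0.00 over all genes tested.

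**Figure D1:**
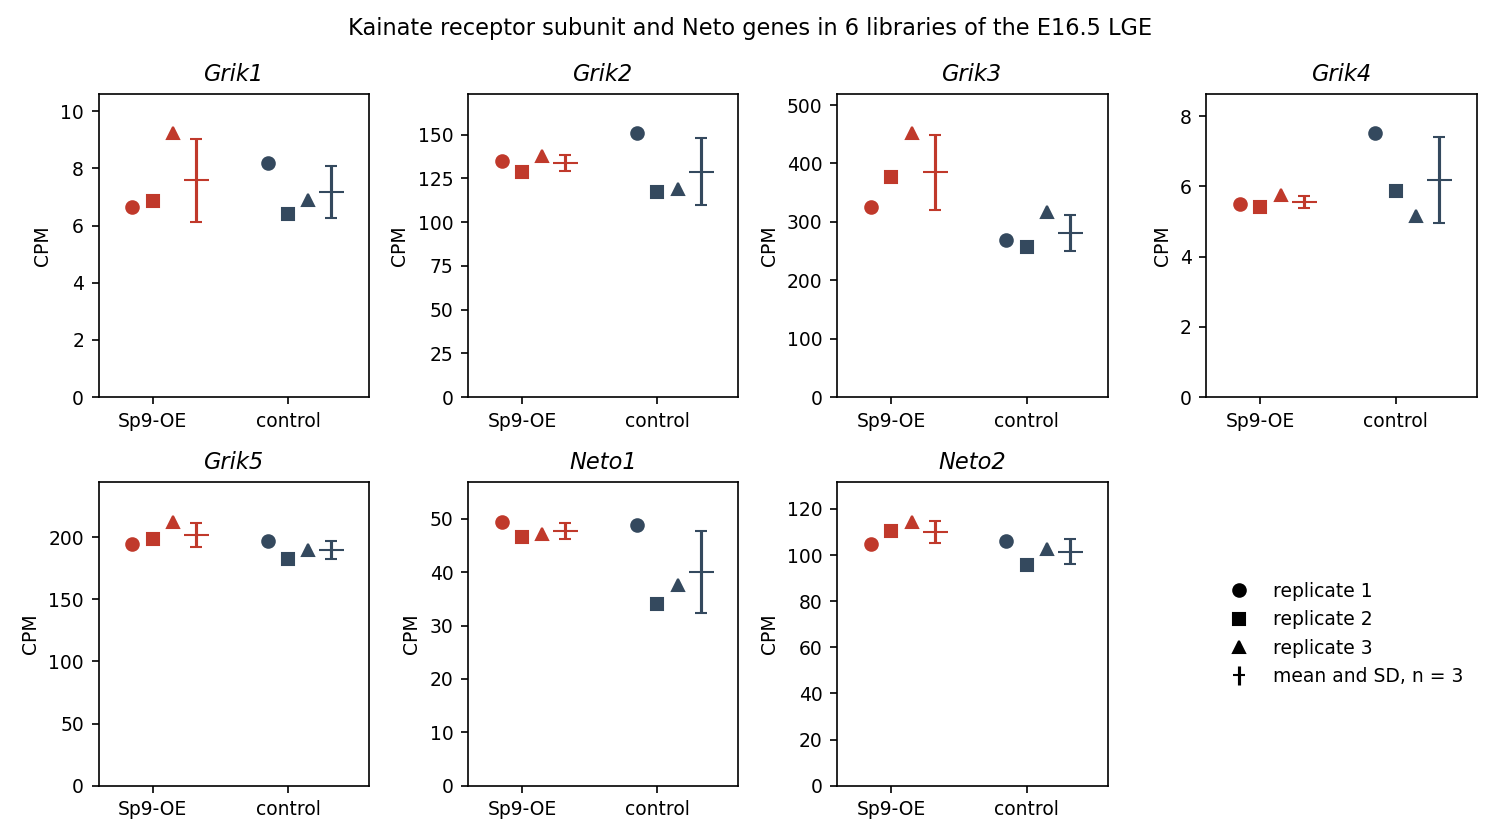
CPM of the 7 genes in each library (vertical axes, each from 0), Sp9-OE left and controls right. Symbols mark replicates 1 to 3 and the bars beside them the mean and SD. The groups are apart for *Grik3* only, where the lowest Sp9-OE library, at 325 CPM, is above the highest control, at 316 CPM.

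Among the subunits that form channels alone, *Grik3* (chr4:125490700-125714173, plus strand) had the most reads. It stood at 325, 377 and 452 CPM in Sp9-OE libraries 1, 2 and 3, against 269, 258 and 316 CPM in controls 1, 2 and 3. The nearest libraries of the groups, Sp9-OE 1 and control 3, were close together, and Sp9-OE 3 was well above the other two. The means were 385 ± 63.6 CPM in Sp9-OE libraries and 281 ± 31.1 CPM in controls (SD, n = 3 each), a log2 difference of 0.44 (SE 0.12, 95% interval 0.16 to 0.73). Its unadjusted limma p was 0.00727, rank 99 of 15102, and its adjusted p was 0.788, so the difference did not hold up against the number of genes tested. In these bulk samples more cells that express *Grik3* and more *Grik3* RNA per cell cannot be told apart.

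With 5179 to 9986 reads of *Grik3* per library, counting error accounted for a coefficient of variation of 1.06% among Sp9-OE libraries and 1.3% among controls, while the observed spread was 15.6 times that in Sp9-OE libraries and 8.48 times in controls. The spread between libraries, and not depth, set the width of its interval. The difference stayed above 0 with each library left out, at 0.32 without Sp9-OE 3 to 0.56 without Sp9-OE 1. Against control 3 alone, the control library whose *Xist* level matched the Sp9-OE group, the Sp9-OE mean was 0.27 higher on the log2 scale, a value with no test. With the *Xist* level as a covariate it was 0.27, with a limma adjusted p of 0.959. Only control 3 shares the *Xist* level of the Sp9-OE group. This fit thus in effect repeats the contrast with control 3 and is not a second estimate.

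Count models run on recovered reads gave *Grik3* an adjusted p of 0.805 with edgeR's quasi-likelihood test, which called 0.0331% of all genes. DESeq2 gave it an adjusted p of 0.0867 and called 0.225% of all genes. No model called it at 0.05, and over the 15 alternatives its adjusted p ran from 0.0867 to 1.

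*Grik2* (chr10:49094833-49788766, minus strand), the subunit most often paired with GluK5, stood at 135, 129 and 138 CPM in Sp9-OE libraries, against 151, 117 and 119 CPM in controls. The highest value of all was in control 1, and every Sp9-OE library lay within the range of the controls. Its log2 difference was 0.06 (SE 0.10, 95% interval -0.16 to 0.29, limma adjusted p = 0.882), and it was 0.18 without control 1 and 0.00 without control 2. The Sp9-OE libraries spread 1.94 times as far as counting error, and the controls 7.65 times.

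*Grik1* (chr16:87895900-88290265, minus strand) had few reads, 129 to 204 per library. It stood at 6.64, 6.86 and 9.23 CPM in Sp9-OE libraries and at 8.17, 6.42 and 6.88 CPM in controls, with full overlap apart from Sp9-OE 3, the highest. The log2 difference was 0.07 with an interval of -0.30 to 0.44 (SE 0.16, limma adjusted p = 0.924), or 0.81 to 1.35 times. Its sign depended on single libraries, with -0.07 without Sp9-OE 3 and 0.16 without control 1.

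Of the subunits that need a partner, *Grik5* (chr7:25009849-25072346, minus strand) was abundant and even. It stood at 194, 199 and 213 CPM in Sp9-OE libraries, against 197, 182 and 190 CPM in controls. Sp9-OE 2 and 3 were above every control and Sp9-OE 1 was not. The log2 difference was 0.09 (SE 0.06, 95% interval -0.04 to 0.22, limma adjusted p = 0.789), an interval whose upper end is a change of 1.16 times. Without Sp9-OE 3 the difference was 0.05.

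*Grik4* (chr9:42518135-42944493, minus strand) was the only one of the 7 with a negative difference. It stood at 5.51, 5.42 and 5.75 CPM in Sp9-OE libraries, within the controls at 7.52, 5.87 and 5.15 CPM. The log2 difference was -0.13 (SE 0.15, 95% interval -0.48 to 0.23, limma adjusted p = 0.857). It rested on control 1, without which it was 0.01, and with *Xist* as a covariate it was 0.11.

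*Neto1* (chr18:86394952-86506718, plus strand) stood at 49.5, 46.6 and 47.2 CPM in Sp9-OE libraries, against 48.8, 34.0 and 37.6 CPM in controls. All Sp9-OE libraries were above controls 2 and 3, and control 1 fell inside their range. The means were 47.8 ± 1.55 CPM in Sp9-OE libraries and 40.1 ± 7.72 CPM in controls (SD, n = 3 each), a log2 difference of 0.27 (SE 0.12, 95% interval -0.02 to 0.55, limma adjusted p = 0.788). Without control 1 the difference was 0.41 with an adjusted p of 0.126, and without control 2 it was 0.16. An antisense gene, AC113599.1, shares 219 bases of exon with *Neto1*. The kit marks strand, but no source used here says whether counting used it, so these bases may carry reads of either gene.

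*Neto2* (chr8:85636588-85700924, minus strand) stood at 105, 110 and 114 CPM in Sp9-OE libraries and at 106, 95.5 and 103 CPM in controls. Sp9-OE 1 was just below control 1, and the other two were above all controls. The log2 difference was 0.12 (SE 0.06, 95% interval -0.02 to 0.26, limma adjusted p = 0.788). No leave-out of a library turned its sign, with values of 0.07 to 0.15.

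**Figure D2:**
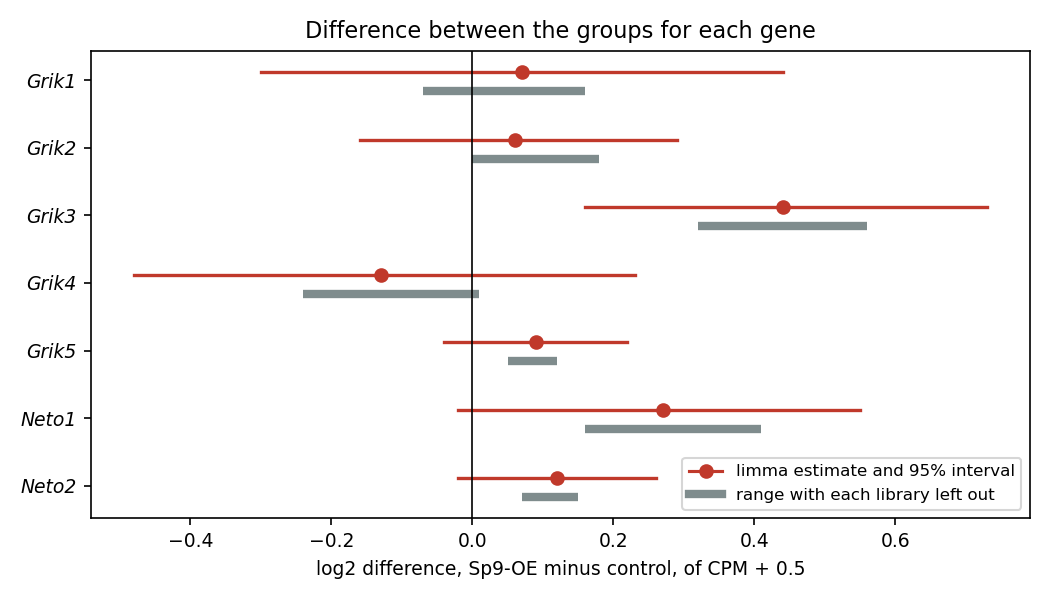
Log2 difference of CPM + 0.5, Sp9-OE minus control (horizontal axis), for each of the 7 genes. Points and thin lines are limma estimates with 95% intervals, and thick grey lines span the estimates with each library left out in turn. The interval of *Grik3*, 0.16 to 0.73, is the only one that leaves out 0 before adjustment, and the grey lines of *Grik1*, *Grik2* and *Grik4* reach or cross it.

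Control 1 had the highest control value for *Grik1*, *Grik2*, *Grik4*, *Grik5*, *Neto1* and *Neto2*, and it was also the library highest in the cortical markers. Its pyramidal neuron sum was 82.7 CPM, and *Reln*, a gene of Cajal-Retzius cells and some interneurons, was at 129 CPM in control 1, against 60.3 to 68.4 CPM in Sp9-OE libraries and 38.4 and 44.5 CPM in controls 2 and 3. *Grik3* did not share this, since its highest control value was in control 3. Control 1 was not set apart by cortical markers only. It was the highest control in the sums of D1-MSN, D2-MSN and both-type MSN genes, at 757, 608 and 2410 CPM. It was the lowest control in the radial glia sum, at 2040 CPM, and in the intermediate progenitor sum, at 1250 CPM. The part of tissue composition in the levels of the 6 genes was not tested.

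To compare the genes with each other, CPM was divided by the length of all annotated exons in kilobases. *Grik3* and *Grik5* led in both groups, *Grik3* with a mean of 42.9 CPM per kilobase in Sp9-OE libraries and 31.3 in controls. *Grik5* stood at 37.6, 38.4 and 41.1 CPM per kilobase in Sp9-OE libraries and at 38.1, 35.3 and 36.7 in controls. By their means *Grik3* was the higher in Sp9-OE libraries, where the ranges of these 2 genes overlapped. *Grik5* was the higher in controls, where its lowest value lay only 0.02 CPM per kilobase above the highest of *Grik3*. *Neto2* came next, at 17.1 to 18.7 CPM per kilobase in Sp9-OE libraries and 15.6 to 17.3 in controls, and *Grik2* after it, at 10.1 in Sp9-OE libraries and 9.73 in controls.

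*Neto1* averaged 5.72 CPM per kilobase in Sp9-OE libraries and 4.80 in controls. *Grik1* averaged 1.13 CPM per kilobase in Sp9-OE libraries and 1.06 in controls, and *Grik4* averaged 0.932 in Sp9-OE libraries and 1.04 in controls. *Grik1* and *Grik4* overlapped in controls only, and the other neighbours below *Grik3* and *Grik5* did not overlap in either group. With the longest transcript as the length in place of all exons, *Grik5* averaged 49.7 CPM per kilobase in Sp9-OE libraries and 46.7 in controls. *Grik3*, which has 1 annotated transcript, kept its values, so by that length *Grik5* led in both groups, with overlap in Sp9-OE libraries and a gap of 9.63 CPM per kilobase in controls.

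The summed level of the 5 subunit genes was 85.9, 92.1 and 104 CPM per kilobase in Sp9-OE libraries, against 82.0, 74.8 and 82.8 in controls, with no overlap. Without *Grik3* the sum of the other 4 was 49.7, 50.1 and 53.9 CPM per kilobase in Sp9-OE libraries and 51.9, 46.0 and 47.6 in controls, which overlapped. *Grik3* made up 42.2, 45.6 and 48.3% of the sum in Sp9-OE libraries, against 36.6, 38.4 and 42.6% in controls. Only Sp9-OE 1 and control 3 overlapped in this share, by 0.4 percentage points. The share of *Grik5* was 43.7, 41.7 and 39.4% in Sp9-OE libraries and 46.5, 47.2 and 44.3% in controls, with every Sp9-OE library below every control. These shares sum to a whole, so a larger share of *Grik3* lowers those of the others, and they were given no test.

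**Figure D3:**
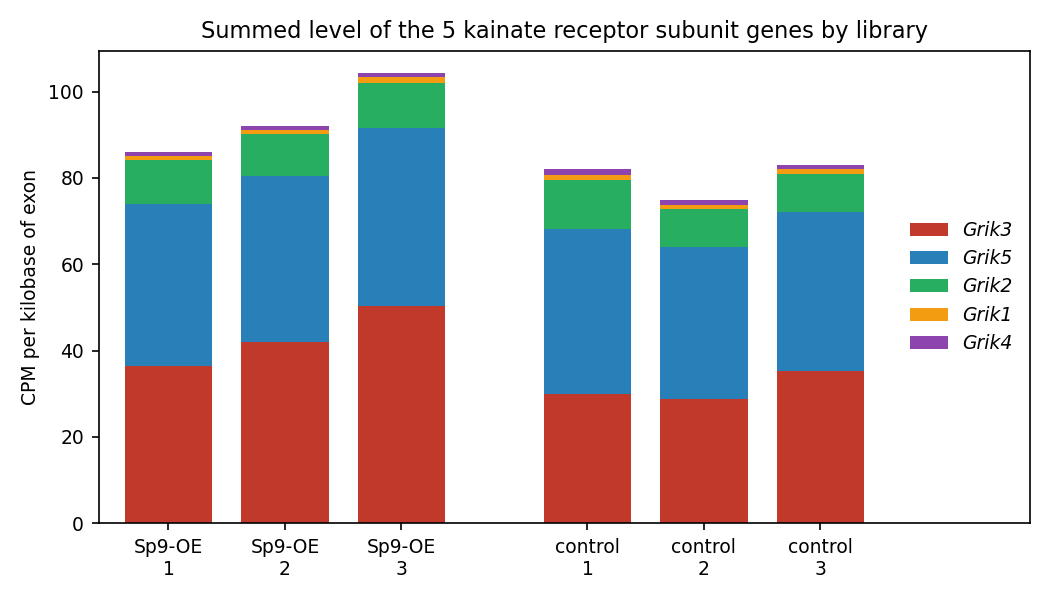
Level of the 5 kainate receptor subunit genes in CPM per kilobase of annotated exon (vertical axis), stacked for each library, Sp9-OE left and controls right. The *Grik3* segment is 36.3 to 50.4 CPM per kilobase in Sp9-OE libraries and 28.7 to 35.3 in controls, and *Grik1* and *Grik4* are thin bands near 1 CPM per kilobase.

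Within a library the ratio of 2 genes does not depend on the scaling of that library. The log2 ratio of *Grik3* to *Grik5* in CPM was 0.74, 0.92 and 1.09 in Sp9-OE libraries, against 0.45, 0.50 and 0.74 in controls, where Sp9-OE 1 and control 3 were equal after rounding. The log2 ratio of *Neto2* to *Neto1* in CPM was 1.08, 1.24 and 1.28 in Sp9-OE libraries and 1.12, 1.49 and 1.45 in controls. *Neto2* had more reads than *Neto1* in every library. No test was made of these ratios.

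*Grik3*, which the study counts as a D2-MSN gene, was set beside the markers of the 2 MSN types. The 8 D2-MSN markers summed to 697, 751 and 981 CPM in Sp9-OE libraries, against 608, 476 and 552 CPM in controls, without overlap. *Drd2*, the D2 dopamine receptor, stood at 18.1, 27.5 and 44.9 CPM in Sp9-OE libraries and at 19.1, 10.8 and 12.7 CPM in controls. The 9 D1-MSN markers summed to 620, 595 and 694 CPM in Sp9-OE libraries, against 757, 629 and 629 CPM in controls, which overlapped. *Drd1*, the D1 dopamine receptor, stood at 2.15, 3.00 and 3.48 CPM in Sp9-OE libraries and at 15.7, 7.01 and 8.35 CPM in controls.

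Of the 8 D2-MSN markers, 7 had an unadjusted p under 0.05 with higher values in Sp9-OE libraries, beside 2.68% of all genes, and 0 passed the adjusted threshold in limma, against 3 in DESeq2. The 7 became 4 without control 2, beside 2.49% of all genes in either direction, and 3 with *Xist* as a covariate, beside 3.62%. Some of these markers, like *Grik3*, were named by the study on these libraries, so their count is not independent evidence. Of the 9 D1-MSN markers, 2 had a log2 difference above 0 and 7 below, and 3 had an unadjusted p under 0.05 with lower values, beside 2.84% of all genes, a count of 1 with *Xist* as a covariate. Of the 7 genes of both MSN types, 7 had a difference above 0, with a median of 0.28. An unadjusted p under 0.05 was reached by 2 of them with higher values, beside 2.68% of all genes. That count was 6 without control 1, where 13.4% of all genes reached it in either direction. Sp9-OE 3 was the highest library in *Grik3*, in the D2-MSN sum and in *Sp9*, and Sp9-OE 1 the lowest of its group in each of these. This order was not particular to them. The sum over genes of both MSN types had it too, at 2260, 2430 and 3000 CPM in Sp9-OE 1, 2 and 3. Sp9-OE 3 was also the highest of its group in the D1-MSN sum and the lowest in the radial glia sum, at 1840 CPM. Among controls the order differed, with control 1 highest in the D2-MSN sum and control 3 highest in *Grik3* and *Sp9*. Sp9-OE 3 also had the lowest microglial sum, 68.5 CPM over 6 genes, with 263 and 195 CPM in Sp9-OE 1 and 2 and 238 to 317 CPM in controls. Leaving Sp9-OE 3 out left *Grik3* at 0.32. The part of the MSN mix and of microglia in the level of *Grik3* was not tested.

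The genes whose log2(CPM + 0.5) followed each of the 7 most closely over the 6 libraries were taken from those with a mean of at least 10 CPM. Pseudogenes and genes with predicted or clone-type symbols were left out before ranking. For *Grik3* they were *Morc2a* (r = 0.991), *Serac1* (r = 0.990) and *Zfp445* (r = 0.988), out of 9676 genes compared. For *Grik5* they were *Plcl2*, *Tmem57* and *Scn3a*, each at 0.999, and for *Neto2* *Syt14* and *Nktr*, each at 0.996, and *Ppp1r9a* at 0.994. *Grik2* was followed by *Robo1* and *Aff2*, each at 0.992, and *Nalcn* at 0.991, and *Neto1* by *Sv2c* and *Spryd7*, each at 0.990, and *Rps6ka5* at 0.989. *Grik1* was followed by *Kif2a* (r = 0.994), *Tesk1* (r = 0.991) and *Samd10* (r = 0.990), and *Grik4* by *Ablim1* (r = 0.998), *Tmem132b* (r = 0.992) and *Smap1* (r = 0.984). These are the highest of 9676 or 9677 Pearson correlations for each gene over 6 points that share library and scaling, and they carry no p. None of the 7 genes was among the 3 closest of another.

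SP9 belongs to the SP/KLF family, whose members bind GC-rich boxes, so the bases around the start of transcription were read for the letters GGGCGG on either strand (CCGCCC on the other). RefSeq (GRCm38.p6) gave windows of 250 bases before to 50 after the start for 5 of the 7 genes. The windows of the 3 most abundant subunits are printed 5′ to 3′ on the gene's strand with these letters in capitals.
Grik3, chr4:125490446-125490745, plus strand: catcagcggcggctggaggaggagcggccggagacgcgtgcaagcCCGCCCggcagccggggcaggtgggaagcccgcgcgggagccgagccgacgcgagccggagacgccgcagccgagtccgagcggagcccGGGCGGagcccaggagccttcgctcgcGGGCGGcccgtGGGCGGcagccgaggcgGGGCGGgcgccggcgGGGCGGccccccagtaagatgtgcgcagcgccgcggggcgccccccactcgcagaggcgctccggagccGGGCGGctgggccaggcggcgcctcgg
Grik5, chr7:25072320-25072619, minus strand: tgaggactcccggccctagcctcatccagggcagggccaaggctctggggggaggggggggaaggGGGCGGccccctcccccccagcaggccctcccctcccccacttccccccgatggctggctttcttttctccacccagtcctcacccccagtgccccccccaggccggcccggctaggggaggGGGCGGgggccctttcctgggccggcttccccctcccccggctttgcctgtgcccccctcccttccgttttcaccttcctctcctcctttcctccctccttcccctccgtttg
Grik2, chr10:49788705-49789004, minus strand: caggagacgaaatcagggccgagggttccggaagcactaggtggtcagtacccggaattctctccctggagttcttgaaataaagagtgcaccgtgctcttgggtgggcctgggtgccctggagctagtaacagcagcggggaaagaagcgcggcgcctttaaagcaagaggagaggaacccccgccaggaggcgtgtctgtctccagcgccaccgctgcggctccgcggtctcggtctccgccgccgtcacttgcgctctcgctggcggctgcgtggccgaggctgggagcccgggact
*Grik3* held 7 matches, a number reached by 0.627% of the 32851 windows in the table, and its window was 82.0% G or C, beside a median of 52.7% over all windows. *Grik5* and *Grik4* held 2 each, a number reached by 19.5% of all windows, and *Grik2* held 0. *Neto2*, with 2 entries, held 2 in one and 0 in the other. At least 1 match was found in 35.7% of all windows. The shorter letters CACCC were also read on either strand of the same windows. For these, *Grik3* and *Grik4* held 0 matches, *Grik2* and *Grik5* held 2 each, and *Neto2* held 1 in each entry. At least 1 such match was found in 57.5% of all windows, and at least 2 in 25.7%. Matches to GGGCGG are expected more often where G and C are frequent. A match of either kind is a description of the sequence, with no measurement of binding here.

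The other ionotropic glutamate receptor subunits were counted from a list of 13 genes of the AMPA, NMDA and delta types. None passed the adjusted threshold in limma. An unadjusted p under 0.05 was reached by 3 with higher values in Sp9-OE libraries and by 0 with lower values, beside 2.68% and 2.84% of all genes. The count was 1 without Sp9-OE 3, without control 2 or without control 3, beside 2.89%, 2.49% and 4.93% of all genes in either direction. It was 5 without control 1, beside 13.4%. The groups did not overlap for 1 higher and 1 lower gene, beside 5.46% and 5.73% of all genes. The log2 difference was above 0 for 9 and below 0 for 4, with the same median as for the 7 genes, 0.09.

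*Gria1*, which encodes the AMPA receptor subunit GluA1, stood at 94.9, 93.7 and 103 CPM in Sp9-OE libraries, against 82.1, 52.2 and 61.5 CPM in controls. It had the largest difference of the 13, 0.60 on the log2 scale (SE 0.15, limma adjusted p = 0.788), and no overlap. *Grin2b*, an NMDA receptor subunit abundant before birth, stood at 123, 116 and 126 CPM in Sp9-OE libraries and at 116, 69.0 and 82.8 CPM in controls, and *Gria4* differed by 0.24 on the log2 scale. *Grin3a* was the lower gene without overlap, at 7.93, 8.29 and 7.24 CPM in Sp9-OE libraries, against 10.7, 8.36 and 8.70 CPM in controls. *Grik3*, at 0.44, lay between *Grin2b*, at 0.48, and *Gria4*, within the span of the other receptor subunits.

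The enzymes and binding proteins that act on kainate receptors showed small differences. Of 13 genes tested for editing, trafficking and scaffold roles, 10 had a log2 difference above 0 and 3 below, with a median of 0.07. None reached an unadjusted p under 0.05 in limma, beside 5.52% of all genes in either direction. Without control 1, 3 did, beside 13.4%, and without Sp9-OE 1 or control 3, 1 did, beside 8.03% and 4.93%. *Adarb1*, whose product edits the Q/R site printed above, was the 1 gene without overlap, a class that held 5.46% of all genes with higher values. It stood at 30.5, 29.1 and 31.2 CPM in Sp9-OE libraries and at 28.6, 25.2 and 27.3 CPM in controls (log2 difference 0.16, limma unadjusted p = 0.0611, adjusted p = 0.788). *Dlg4*, the scaffold PSD-95, had a log2 difference of 0.20, and *Klhl24*, a BTB/Kelch protein that binds GluK2, 0.15.

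The 14 auxiliary and associated genes of AMPA receptors, the counterparts of the Neto genes, had 10 differences above 0 and 4 below, with a median of 0.09. None had an unadjusted p under 0.05 in limma. Without control 1, 4 reached it, beside 13.4% of all genes in either direction, and with *Xist* as a covariate 3 did, beside 3.62%. The largest among those with a mean of at least 5 CPM were *Cacng2* at 0.30, *Cacng8* at 0.26 and *Shisa7* at 0.23 on the log2 scale. The 7 genes tested for glutamate transport and turnover had 2 differences above 0 and 5 below, with a median of -0.11. None had an unadjusted p under 0.05. Both without control 1 and with *Xist* as a covariate, 2 reached it, beside the same 13.4% and 3.62%. Without Sp9-OE 2 or control 3, 1 did, beside 3.46% and 4.93%. Among the 7, *Slc1a1*, the neuronal transporter, differed by 0.22, *Slc1a2*, the glial transporter, by -0.20, and *Glul*, glutamine synthetase, by -0.11.

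**Figure D4:**
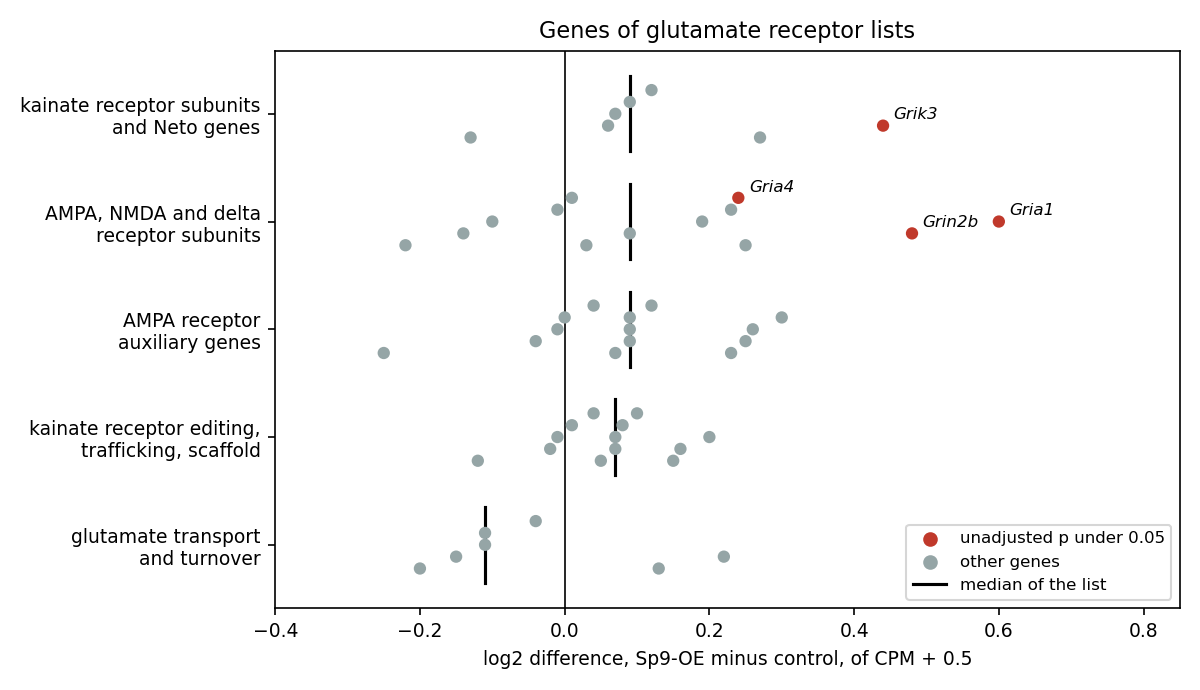
Log2 difference of CPM + 0.5, Sp9-OE minus control (horizontal axis), for each gene tested in the 5 lists named on the left. Red points have an unadjusted limma p under 0.05, grey points do not, and black bars are list medians. *Grik3*, at 0.44, lies within the span of the other receptor subunits, whose red points are *Gria1*, *Grin2b* and *Gria4*.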

How the data were processed

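RNA was from the E16.5 LGE of 3 *Dlx5/6-CIE; Rosa-Sp9-OE/+* and 3 *Dlx5/6-CIE* littermate samples, prepared with a stranded total RNA kit after removal of ribosomal RNA. The build was mm10 per the submitters' processing notes. No source used here names the aligner or the counter. CPM values were deposited by the authors per gene and library, on an effective library size, with sums of 965678 to 1014636 CPM over the listed genes. In each library at least 99.99% of values were whole multiples of the value of 1 read, within 0.001 CPM, and these reads were recovered. Columns are marked E or C, which were read as Sp9-OE and control, though no label spells the letters out. The authors' own comparison columns (mean log CPM, fold change, p-value and adjusted p-value) were not used.

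Genes that reached 0.5 CPM in 3 or more libraries were tested with limma 3.58.1 (R 4.3.3) on log2(CPM + 0.5), with an intensity trend, genotype as the only term and Benjamini-Hochberg adjustment over all genes kept. Fold changes are on that scale, which understates those of low genes. The procedure was tested on simulated data. Alternatives were a replicate block, each library left out, scaling by the median of ratios, a filter at 1 CPM or none, *Xist* as a covariate, a pseudocount of 0.1 or 1, and edgeR 4.0.16 and DESeq2 1.42.0 on recovered reads. Replicates differed beyond sampling noise, with a chi-square of 5.74 to 17.55 per degree of freedom.

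The 7 genes, the lists and the tests were chosen with earlier results of these data known. Named genes are the 7, checks of the allele and sex, *Drd1* and *Drd2*, and, in each list, the 3 largest differences with a mean of at least 5 CPM and genes without overlap. Those most alike in pattern to each of the 7 are also named. One gene that the rule selects is not reported here. Lists of progenitor, interneuron, oligodendrocyte, endothelial and red blood cell markers were measured as well.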

Additional observations from a re-analysis of the deposited data

How the results depend on the processing

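No alternative with a test called any of the 7 genes. The number of genes called among all was 4 with limma and 34 with DESeq2, and ran from 3 to 15 with each library left out, with 15 without control 1 and 11 without control 3. *Grik1* ran from -0.07 to 0.16 on the log2 scale with each library left out, with -0.0726 without Sp9-OE 3 and -8e-04 without control 2. *Grik2* ran from -8e-04 without control 2 to 0.18. *Grik4* ran from -0.24 to 0.0139, its value without control 1, and was 0.1102 with *Xist* as a covariate, where *Grik3* was 0.27 with an adjusted p of 0.959. *Grik3*, *Grik5*, *Neto1* and *Neto2* kept a positive sign in all 15 alternatives. Among the other ionotropic receptor subunits, the count at the adjusted threshold was 0, and 1 without control 1 and with DESeq2. The causes were not tested.

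Replicate numbers are shared by the groups, but deviations of same-numbered libraries correlated at -0.104, 0.202 and 0.083, so the numbers were not taken to pair the samples. With the replicate block *Grik3* differed by 0.44 with a limma adjusted p of 0.456, and no call among the 7 changed.

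With 3 libraries a group, of which 2 controls differ in sex from the others, sex and genotype are partly confounded. With *Xist* as a covariate the genotype difference rests in effect on a single control library. *Grik1* and *Grik4*, with 116 to 204 reads per library, are also limited by depth.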

Other observations

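Lists measured beside the 7 genes gave the values that follow, with differences on the log2 scale, Sp9-OE minus control. Radial glia genes summed to 1840 to 2160 CPM in Sp9-OE libraries and 2040 to 2460 CPM in controls, and intermediate progenitor genes to 1280 to 1470 CPM in Sp9-OE libraries and 1250 to 1620 CPM in controls. Interneuron genes summed to 209 to 255 CPM in Sp9-OE libraries and 219 to 260 CPM in controls, oligodendrocyte precursor genes to 75.8 to 101 CPM in Sp9-OE libraries and 92.2 to 105 CPM in controls, and endothelial and mural genes to 158 to 166 CPM in Sp9-OE libraries and 162 to 182 CPM in controls. Red blood cell genes summed to 971 to 1110 CPM in Sp9-OE libraries and 879 to 1070 CPM in controls. No gene of these lists passed the adjusted threshold in limma.

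The 6 radial glia genes, the 6 intermediate progenitor genes and the 5 oligodendrocyte precursor genes all had a difference below 0, with medians of -0.14, -0.16 and -0.25. Of the 17, *Hes5* alone had an unadjusted limma p under 0.05, with a difference of -0.29, and its groups overlapped. That threshold was reached by 2.84% of all genes with a negative difference. Without control 1, 5 radial glia and 4 intermediate progenitor genes reached it, beside 13.4% of all genes in either direction. The radial glia count was 0 without Sp9-OE 3, control 2 or control 3, and 2 without Sp9-OE 2. *Dbi* differed by -0.15 and *Fabp7* by -0.21. Among the intermediate progenitor genes *Gadd45g* differed by -0.23, *Dll3* by -0.21 and *Gsx2* by -0.18. Among the oligodendrocyte precursor genes *Cspg4*, at -0.25, and *Sox10*, at -0.19, had no overlap, a class that held 5.73% of all genes with lower values. *Olig1* differed by -0.27 and *Pdgfra* by -0.25. The 6 microglial genes also had differences below 0, with -1.07 for *Cx3cr1*, -0.99 for *Aif1* and -0.90 for *C1qc*, and overlap between the groups. *Cx3cr1* and *Aif1* had an unadjusted limma p under 0.05, beside 2.84% of all genes with a negative difference. *Cx3cr1* was lowest in Sp9-OE 3, at 12.9 CPM, against 54.3 and 35.8 CPM in Sp9-OE 1 and 2 and 48.8 to 70.4 CPM in controls.

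Among MSN markers, *Adora2a* differed by 1.06, *Gucy1b3* by 0.69, *Ptprm* by 0.64, *Gucy1a3* by 0.52 and *Six3* by 0.32, each without overlap, and *Drd2* by 1.00 with overlap. Over all genes, 5.46% had higher and 5.73% lower values without overlap. No MSN marker passed the adjusted threshold in limma. *Drd1* differed by -1.62 and *Plxnd1* by -0.43, both without overlap, and *Tac1* by -0.44 (SE 0.38) with overlap. *Tac1* stood at 38.7, 12.2 and 13.8 CPM in controls 1, 2 and 3, against 15.8, 13.0 and 12.5 CPM in Sp9-OE libraries. Of the genes of both MSN types, *Gad1*, at 0.36, and *Foxp2*, at 0.31, had no overlap, and *Ppp1r1b* differed by 0.59 with overlap. Other genes overlapped, with *Tbr1* at 0.14, *Neurod2* at 0.23, *Npy* at -0.25, *Sst* at -0.13, *Nkx2-1* at -0.33, *Cldn5* at -0.17, *Vtn* at -0.14, *Pecam1* at -0.09, *Hba-a2* at -0.13, *Alas2* at -0.07, *Hba-a1* at 0.27 and *Reln* at 0.08. Mean CPM went the other way for *Tbr1*, 11.1 in Sp9-OE libraries against 15.3 in controls, *Neurod2*, 9.87 against 12.2, and *Reln*, 64.1 against 70.5. Their SEs were wide, at 0.78, 0.74 and 0.39, as was that of *Hba-a2*, 0.93, with 388 CPM in control 1.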
